A study of Rattus norvegicus with 12 samples.

Results

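The genes described here are those that the deposited count table of rat intestine annotates to protein processing in the endoplasmic reticulum (ER), KEGG pathway rno04141. A gene was a member where its annotation held rno04141 and none of the pathways rno03040 (spliceosome), rno03050 (proteasome) and rno04110 (cell cycle), and where it was not Xbp1. Of 164 rows with rno04141, 8 were left out for another pathway and 1 was Xbp1, which left 155 members of 18749 genes. Enough reads for testing were present for 151 members, while Calr4, Cryaa, Dnajc5b and Lman1l had too few.

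Proteins that are secreted or sit in membranes enter the ER through the Sec61 translocon, receive N-linked glycans from the oligosaccharyltransferase and fold with the help of luminal chaperones, lectins and disulfide isomerases. Folded cargo leaves in COPII vesicles, and misfolded chains are pulled back to the cytosol by ER-associated degradation (ERAD). When unfolded proteins build up, the sensors IRE1 (Ern1), PERK (Eif2ak3) and ATF6 start the unfolded protein response, which raises chaperone and ERAD genes and, if prolonged, cell death genes such as Ddit3 (CHOP). In the intestine the load is carried above all by secretory cells such as goblet, Paneth and plasma cells.

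The study, on adaptation of the small intestine after total colectomy, holds 12 polyA RNA sequencing libraries of intestine from wild-type rats, 4 in each of 3 groups and all in batch 1. The group preSTC was labelled preoperative, postSTC postoperative and preCTC as sampled ahead of a sham operation. The labels do not spell out STC or CTC and give no strain, age, interval or segment of intestine. Libraries from after the sham operation were not analysed here, so what the operation did and what time alone did cannot be told apart. The labels do not say that the libraries of a group are from different animals, and p-values then cover the variation among these libraries alone, which may be technical. Libraries held 30095656 to 39374682 counts.

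Before any result, 1 library has to be set apart. In postSTC7, 9 genes of seminal vesicle and prostate, such as Semg1 and Svs4, took 42.9% of all counts, against 0.0178 to 0.0243% in the other postSTC libraries and 0.0195% in preSTC7. Of these genes 8 were at 0 in every preCTC library. Counts of called members and the calls of postSTC are therefore given with and without postSTC7. Marker genes also separated the groups: the summed library-size-scaled counts (CPM, counts relative to an effective library size) of 7 ileal enterocyte genes ran from 6309 to 7354 in preSTC and from 10.2 to 55.4 in preCTC, and those of 10 colon-enriched genes from 185 to 244 and from 2095 to 4512. In bulk tissue, fewer cells of a type and less RNA per cell cannot be told apart.

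The most abundant members were chaperones and folding enzymes. Per transcript length, in deposited FPKM, Calr (calreticulin, a glycan-binding chaperone) led in preSTC with a level of 739.6 ± 106 (mean ± SD, n = 4 libraries throughout). Hsp90ab1, the cytosolic HSP90, followed at 588 ± 42.5 FPKM, P4hb, the classical protein disulfide isomerase, at 448 ± 49.6 FPKM, and Pdia3, which works with the lectin chaperones, at 388 ± 48 FPKM. Hspa5 (BiP, the luminal HSP70) stood at 307 ± 61.5 FPKM and Hsp90b1 (GRP94, the luminal HSP90) at 295 ± 46.7 FPKM, levels that did not differ beyond their spread. In preCTC the order of the leading pair was turned, with Hsp90ab1 at 561 ± 28.9 and Calr at 426 ± 64.8 FPKM. Hsp90ab1 was named after its values were seen.

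A minority of these genes carry a known stress element in their promoters. Genes of the unfolded protein response are known to carry the ER stress response element (ERSE), a CCAAT box and a CCACG half-site with 9 bases of any kind between them, or the shorter ERSE-II, ATTGG and CCACG with 1 base of any kind between them. RefSeq promoters of assembly GRCr8, from 250 bases before to 50 after the annotated start, were found for 126 members and searched on both strands. An exact ERSE stood in 8 members (6.35%), against 21 of 27457 promoters of all genes (0.0765%). ERSE-II stood in 3 members (2.38%), against 15 of all promoters (0.0546%). Every ERSE match in a member and those ERSE-II matches that lie wholly before the start are shown, since the chaperone genes among them recur in the comparisons. Of the other genes shown, Ero1b, Derl3 and Herpud1 were called in no comparison and Calr4 was not tested. Each is written 5′ to 3′ on the gene's own strand with 12 bases on either side, capitals mark the fixed letters of the motif, and positions count from the start, whose base is 0.
Hspa5 ERSE, chr3:38452961-38453003, plus strand, motif from -43 to -25: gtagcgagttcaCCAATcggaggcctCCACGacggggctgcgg
Hsp90b1 ERSE, first match, chr7:23012439-23012481, minus strand, motif from -176 to -158: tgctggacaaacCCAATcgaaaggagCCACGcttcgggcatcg
Hsp90b1 ERSE, second match, chr7:23012335-23012377, minus strand, motif from -72 to -54: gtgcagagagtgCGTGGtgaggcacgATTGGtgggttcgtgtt
Calr ERSE, chr19:40213123-40213165, plus strand, motif from -232 to -214: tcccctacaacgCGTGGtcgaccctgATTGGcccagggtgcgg
Canx ERSE, chr10:35158057-35158099, minus strand, motif from -230 to -212: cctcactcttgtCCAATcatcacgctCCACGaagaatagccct
Dnajc3 ERSE, chr15:102432522-102432564, plus strand, motif from -133 to -115: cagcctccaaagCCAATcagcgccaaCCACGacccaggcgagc
Ero1b ERSE, chr17:92941446-92941488, plus strand, motif from -224 to -206: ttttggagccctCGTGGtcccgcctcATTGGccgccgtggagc
Derl3 ERSE, chr20:12766589-12766631, minus strand, motif from -154 to -136: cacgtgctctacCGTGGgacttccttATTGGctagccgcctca
Calr4 ERSE, chr5:129216120-129216162, plus strand, motif from -161 to -143: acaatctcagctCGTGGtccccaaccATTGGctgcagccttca
Hyou1 ERSE-II, first match, chr8:53602682-53602716, plus strand, motif from -188 to -178: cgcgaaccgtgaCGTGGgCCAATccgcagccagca
Hyou1 ERSE-II, second match, chr8:53602782-53602816, plus strand, motif from -88 to -78: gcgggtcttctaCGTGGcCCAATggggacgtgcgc
Herpud1 ERSE-II, chr19:10614809-10614843, minus strand, motif from -124 to -114: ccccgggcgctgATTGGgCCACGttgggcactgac
In Calr, Ero1b, Derl3, Calr4 and Hyou1 and at the second Hsp90b1 match the motif reads on the opposite strand, so its CCAAT box appears as ATTGG and its CCACG as CGTGG, or in Hyou1 its ATTGG as CCAAT. Dnajb11 held the third ERSE-II, reaching the start itself. The luminal chaperones were richest in these elements, with an ERSE in 3 of 8 promoters and an ERSE-II in 2 of 8.

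Other stress elements were mixed. The XBP1 and ATF6 element UPRE, TGACGTGG, was also more frequent in members, in 9 promoters (7.14%, all promoters 0.637%). Its match in Hyou1 overlaps the first ERSE-II of that gene. The heat shock element HSE, the blocks GAA, TTC and GAA with 2 bases of any kind between neighbours, stood in 2 (1.59%, all promoters 0.736%), Dnaja1 and Hsph1, both cytosolic chaperone genes. The amino acid response element CARE, TGATGCAAT, was found in 0 member promoters and in 53 of all (0.193%). A match describes letters in this window and does not show that a factor binds.

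The first comparison asked how these genes stood after the operation, postSTC against preSTC. With all libraries few members were called: 3 cytosolic heat shock genes, the co-chaperone Bag2, the stress kinase Map3k5 and Ddit3 rose, and Sec13, Stt3b and Eif2s1 fell. Of 151 members 6 rose and 3 fell (edgeR's quasi-likelihood test, adjusted over all genes), where 18% of all genes tested were called (11.1% higher, 6.9% lower). Without postSTC7 7 members rose and 22 fell, where 18.3% of all genes were called. The members' median log2 fold change was 0.06, and that of all genes 0.04. Without overlap between the groups, 11 members were higher and 6 lower, where 22.1% of all genes did not overlap (11.9% higher, 10.2% lower). Without postSTC7 14 were higher and 37 lower without overlap, where the shares of all genes were 16.1% and 14%. Same-numbered libraries of these groups varied together, and with the replicate number as a block in the 12-library fit 5 members rose and 1 fell, where 11.1% of all genes were called. The blocked fit of the 8 libraries alone called 0 members, 10 at an unadjusted p under 0.05, and 66 of all genes (0.432%). Only postSTC1, postSTC5 and postSTC7 had a same-numbered preSTC library, which left that fit few degrees of freedom. A call lost there does not show that a gene was unchanged. The unblocked fit of those 8 libraries called 6 higher and 2 lower (12.6% of all genes). On FPKM with limma 0 or 1 were higher, by the value added before the log, and 1 lower (3.32% or 4.16% of all genes).

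In the ER lumen and membrane, with all libraries, edgeR called 0 of 8 luminal chaperones, 0 of 6 disulfide enzymes and 0 of 20 glycan trimming and lectin genes. It also called 0 of 13 ER entry genes and 0 of 22 ERAD membrane genes, where 18% of all genes were called. At an unadjusted p under 0.05 these groups held 0, 1, 1, 1 and 1 genes. With all libraries DESeq2 called 1 of them, Sec62 of ER entry, as higher, and limma voom 0. Without postSTC7 edgeR called 3 luminal chaperones and 1 disulfide enzyme lower and 0 ERAD membrane genes, where 18.3% of all genes were called. In that fit 1 glycan trimming and lectin gene was higher and 3 lower, and 1 ER entry gene was higher and 3 lower.

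**Figure D1:**
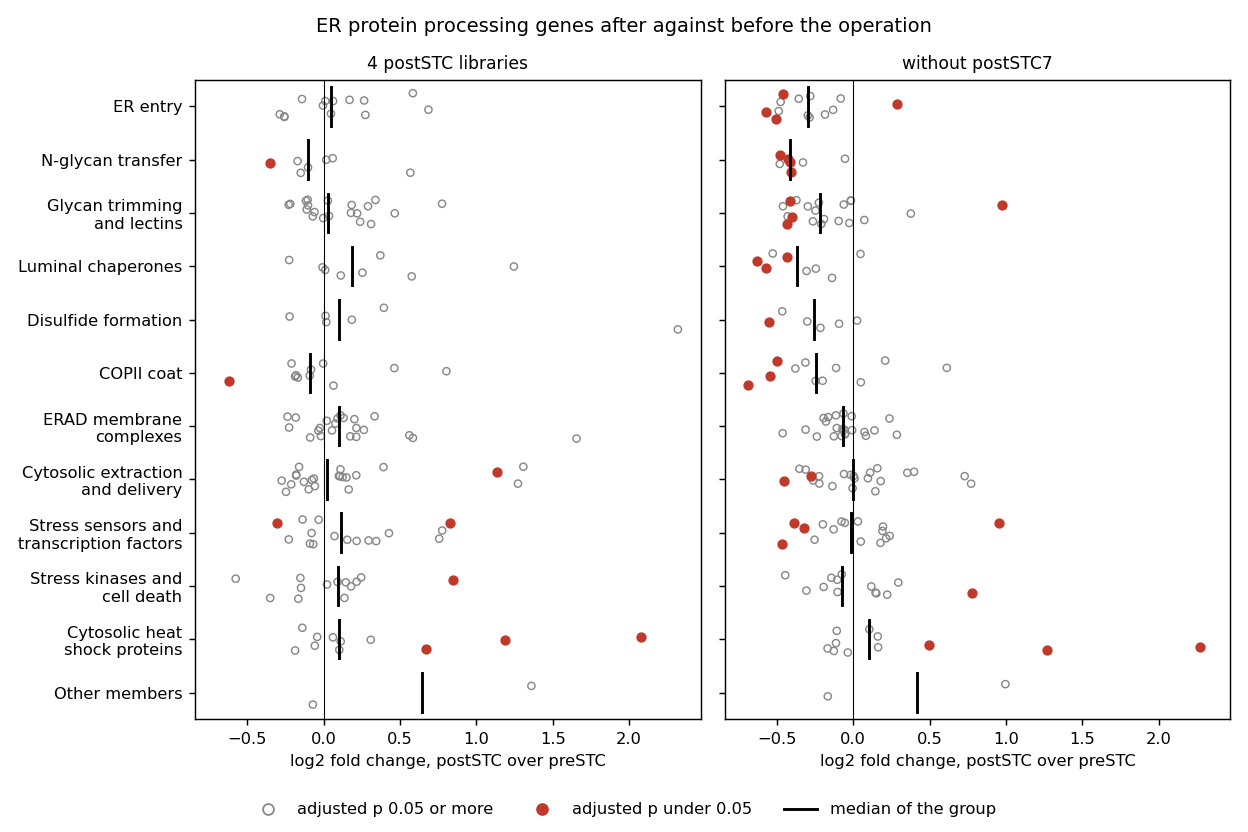
Log2 fold change of each tested member, postSTC against preSTC (x axis), by role in the pathway (rows), with all postSTC libraries and with postSTC7 left out. Points are genes, filled where edgeR's adjusted p is under 0.05. The cytosolic heat shock row holds the largest called rise, Hspa4l at 2.08, and with postSTC7 left out the chaperone, N-glycan and translocon rows sit mostly below 0.

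Among cytosolic heat shock proteins 3 of 11 rose and 0 fell. Hspa4l, an HSP110-type chaperone that exchanges nucleotide on HSP70, had 0.757, 1.92, 1.7 and 2.61 CPM in preSTC1, 5, 7 and 9 and 7.34, 6.16, 12 and 3.94 CPM in postSTC1, 2, 5 and 7. Every postSTC library exceeded every preSTC library, and the lowest was postSTC7. The log2 fold change was 2.08 ± 0.369 (SE, adjusted p = 0.00394), a 4.22-fold rise, and 2.27 without postSTC7.

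Cryab (αB-crystallin, a small heat shock protein abundant in muscle) had 10.9, 10.2, 12.7 and 13.7 CPM in preSTC and 25.9, 26.2, 34.2 and 21.8 CPM in postSTC, in the same order of libraries. The groups did not overlap, and the log2 fold change was 1.19 ± 0.236 (adjusted p = 0.00682, 0.00561 without postSTC7). Dnajb2, a J-domain partner of HSP70 named after its values were seen, rose by 0.67 on the log2 scale from 32.5 ± 2.24 to 51.9 ± 11.5 CPM (adjusted p = 0.00854, 0.50 at 0.00688 without postSTC7). The other 8 cytosolic members did not pass, among them the abundant Hsp90aa1 at -0.19 ± 0.115 (adjusted p = 0.282, -0.13 at 0.447 without postSTC7). Among smooth muscle markers 5 of 10 were called higher and 0 lower. Their summed level ran from 4135 to 6359.7 CPM in preSTC and 7362 to 11052 CPM in postSTC. Of 8 fibroblast markers 4 were higher and 0 lower. Of 9 epithelial markers 0 were higher and 1 lower with a median of -0.41 (0 and 0 with -0.29 without postSTC7). Of 7 ileal enterocyte markers 1 was higher and 2 lower. Of 10 colon-enriched markers 7 were higher and 0 lower with a median log2 fold change of 5.70 (8 higher without postSTC7), and their summed level in postSTC was 397 to 930.0 CPM. Among the called members Hspa4l, Cryab, Map3k5, Bag2, Sec13 and Stt3b lay in postSTC on the same side of preSTC as they did in preCTC. Both differences use the same preSTC libraries, which favours the same side in advance, so no conclusion is drawn from it. The part of these markers in the members' results was not tested.

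Bag2, a co-chaperone that restrains the ubiquitin ligase CHIP, was the only one of 22 cytosolic extraction and delivery genes called, with 8.3, 9.09, 12.3 and 10.3 CPM in preSTC and 15.3, 17.2, 17.6 and 38.1 CPM in postSTC. postSTC7 was far above the other postSTC libraries, and the log2 fold change of 1.14 ± 0.326 (adjusted p = 0.0325) became 0.73 (adjusted p = 0.0682) without it. Leaving out any 1 preSTC library also ended the call, with an adjusted p of at most 0.0889. Map3k5 (ASK1, a kinase upstream of JNK and p38) was the only one of 13 stress kinase and cell death genes called. Its level was 20.9, 23.4, 22.1 and 21.9 CPM in preSTC and 36.9, 29.8, 47.5 and 44.9 CPM in postSTC with no overlap, a log2 fold change of 0.85 ± 0.158 (adjusted p = 0.00493, 0.00851 without postSTC7). Bak1, a pore-forming cell death protein, stood at -0.58 ± 0.188 and did not pass by edgeR (adjusted p = 0.0536, -0.45 at 0.101 without postSTC7), while with all libraries DESeq2 and limma voom called it lower.

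Of 16 stress sensors and their factors, 1 rose and 1 fell. Ddit3, the death-linked factor CHOP, had 7.25, 8.67, 7.89 and 8.1 CPM in preSTC and 15.5, 14.6, 16.6 and 9.94 CPM in postSTC. All postSTC libraries were above all preSTC libraries, with postSTC7 the lowest of them, and the 1.78-fold rise (log2 0.83 ± 0.168, adjusted p = 0.00742) was 1.94-fold without postSTC7. Eif2s1, the eIF2α subunit whose phosphorylation by PERK slows translation, fell from 98.7, 94.9, 99.5 and 88 CPM to 81.9, 74, 74.1 and 78 CPM (log2 -0.31 ± 0.0741, adjusted p = 0.0158, -0.32 at 0.0223 without postSTC7), a call lost without preSTC1 or preSTC7 (adjusted p of at most 0.0514). Atf4, the factor that acts upstream of Ddit3 in the PERK branch, had 311, 236, 259 and 244 CPM in preSTC and 284, 259, 267 and 603 CPM in postSTC. Only postSTC7 stood out, and its log2 fold change of 0.43 (adjusted p = 0.258) was 0.03 without it. The sensors did not pass with all libraries. Ern1 stood at 0.78 (adjusted p = 0.16) and, without postSTC7, which had 161 CPM against 42.2, 49.9 and 42.5 CPM in the others, at 0.05 (adjusted p = 0.766). Atf6 went from 0.15 (adjusted p = 0.691) to -0.25 (adjusted p = 0.103), and Eif2ak3 was at -0.23 (adjusted p = 0.445) with all libraries.

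Sec13, an outer-coat subunit of COPII vesicles, was the only one of 11 COPII genes called and showed the largest called fall. It had 137, 119, 131 and 124 CPM in preSTC and 85.1, 83.4, 70.8 and 94.2 CPM in postSTC. The groups did not overlap, the log2 fold change was -0.62 ± 0.126 (adjusted p = 0.00778), a 1.53-fold fall, and it was -0.69 without postSTC7. Stt3b, a catalytic subunit of the oligosaccharyltransferase, was the only one of 7 N-glycan transfer genes called, falling from 224 ± 22.4 to 176 ± 15.4 CPM (log2 -0.35 ± 0.106, adjusted p = 0.0416, -0.41 at 0.0302 without postSTC7). The Stt3b call was lost in 5 of 8 fits that left out 1 library, those without postSTC2, postSTC5, preSTC1, preSTC7 or preSTC9 (adjusted p of at most 0.119). With the replicate block in 12 libraries Bag2, Stt3b and Eif2s1 were not called, and the other 6 called members were. With the block in the 8 libraries compared none of these calls was kept, as the adjusted p was 0.105 for Hspa4l, 0.0986 for Sec13, 0.0760 for Map3k5 and 0.155 for Ddit3. Few degrees of freedom were left in that fit, as postSTC2 and preSTC9 had no same-numbered partner, so these losses do not show unchanged genes. With the block in the 11 libraries without postSTC7, Hspa4l, Map3k5 and Ddit3 were called, while Cryab (adjusted p = 0.0723), Dnajb2 (adjusted p = 0.0631) and Sec13 (adjusted p = 0.0514) were not.

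**Figure D2:**
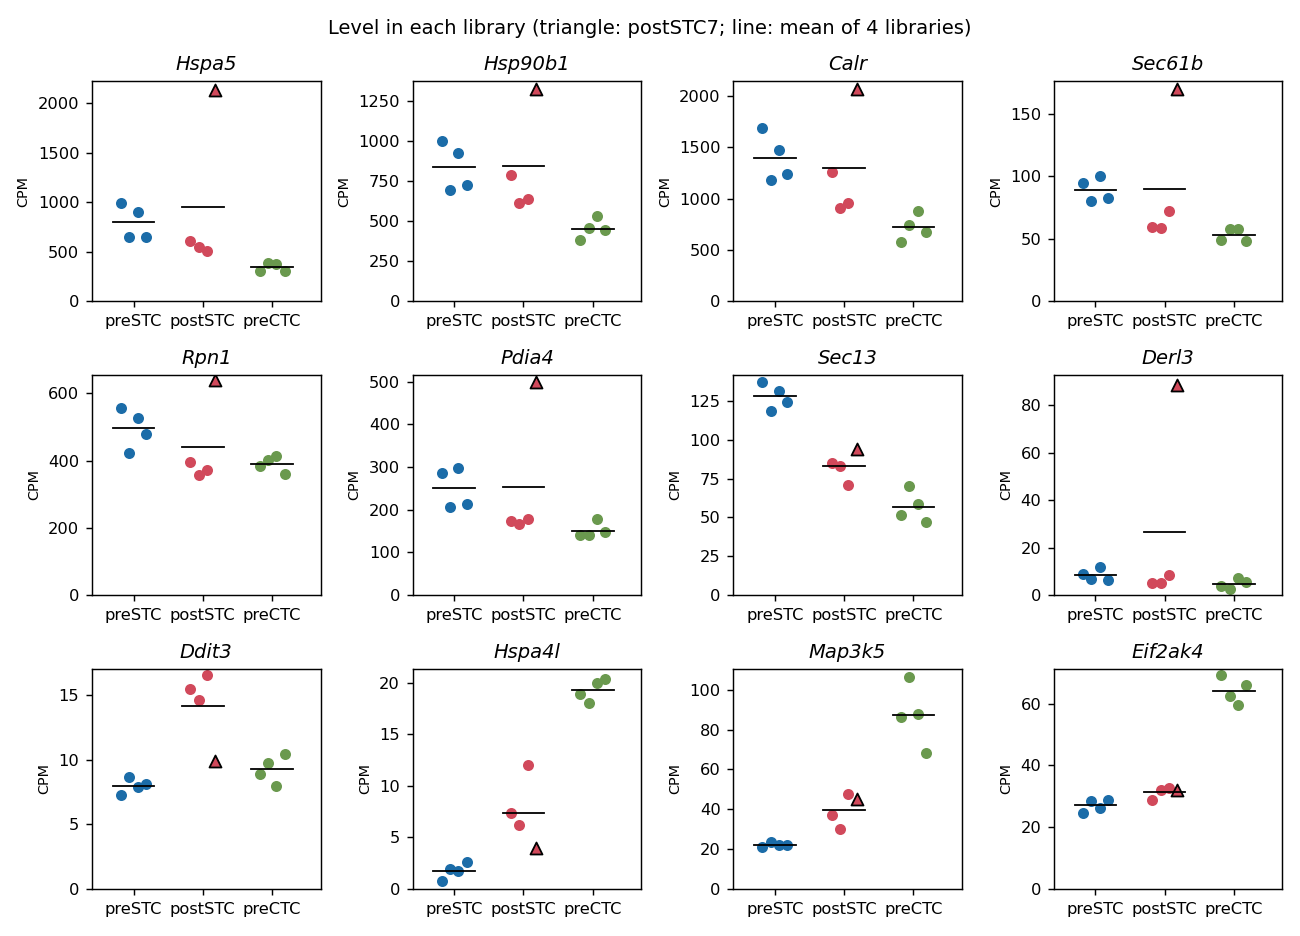
CPM of 12 members in each library (y axis, from 0) by group (x axis), with postSTC7 as a triangle and the mean of 4 libraries as a line. In Hspa5, Pdia4, Rpn1, Sec61b and Derl3 postSTC7 is the only postSTC library above every preSTC library, whereas in Sec13, Hspa4l and Map3k5 all 4 postSTC libraries lie on the same side of preSTC.

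With postSTC7 left out, 7 members rose and 22 fell of 151, where 18.3% of all genes were called (11% higher, 7.27% lower), and 105 members were below 0. The members' median was -0.11, against 0.01 for all genes. Falls were spread over N-glycan transfer (4 of 7), luminal chaperones (3 of 8), ER entry (3 of 13), COPII (3 of 11), glycan trimming and lectins (3 of 20), stress sensors (3 of 16), cytosolic extraction (2 of 22) and disulfide formation (1 of 6), while 0 of 22 ERAD membrane genes passed in either direction. The count of falls was 5 when preSTC7 was left out too (12.9% of all genes called). In the same 11 libraries, with the replicate number as a block, it was 1, Sec24d, with 3 rises, where 7.25% of all genes were called. Of the postSTC libraries in that fit only postSTC1 and postSTC5 had a same-numbered preSTC library. Of the 7 tested members with an ERSE 2 fell with a median of -0.43, and of the 116 without one 18 fell and 6 rose with a median of -0.11. The rises were Hspa4l, Cryab and Dnajb2 among cytosolic heat shock genes, Map3k5 and Ddit3, all as before. Newly called higher were Sec62 of ER entry (1 of 13) and Uggt2 of glycan trimming and lectins (1 of 20). Uggt2 stood at 0.97 (adjusted p = 0.0260). With the replicate block in the 11 libraries neither passed (adjusted p = 0.0710 for Uggt2 and 0.102 for Sec62).

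Hspa5 shows the pattern. It had 988, 647, 903 and 649 CPM in preSTC1, 5, 7 and 9, 613, 547 and 512 CPM in postSTC1, 2 and 5, and 2129.8 CPM in postSTC7. The 3 libraries lay below every preSTC library and postSTC7 above all of them, so the log2 fold change of 0.25 ± 0.407 (adjusted p = 0.7) turned to -0.53 ± 0.179 (adjusted p = 0.0635) without postSTC7, and neither passed. On FPKM with limma, where values are relative to all counts and so include the gland genes of postSTC7 in the total, it was -0.13 with all libraries. Hyou1, the ER-resident HSP110-type partner of Hspa5, went from 0.37 ± 0.48 to -0.63 ± 0.191 (adjusted p = 0.0408, 0.147 with the replicate block), and Dnajb11, its J-domain partner, from -0.23 to -0.57 ± 0.144 (adjusted p = 0.0197, 0.144 with the block). Dnajc3, a J-domain protein that also inhibits PERK, went from 0.11 to -0.43 (adjusted p = 0.0322, 0.134 with the block).

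Genes of other steps were called lower in that fit too, of which Sec61b and Pdia4 had been above 0 with all libraries and the others named here below 0. Sec61b, a subunit of the translocon channel, had 94.5, 80.3, 99.7 and 82.3 CPM in preSTC, 59.3, 58.7 and 72 CPM in postSTC1, 2 and 5, and 169.9 CPM in postSTC7, with a log2 fold change of 0.01 with that library and -0.51 (adjusted p = 0.0135) without it. Rpn1, which anchors the oligosaccharyltransferase, had 556, 423, 526 and 480.3 CPM in preSTC, 395, 357 and 372 CPM in those 3 libraries, and 641 CPM in postSTC7 (log2 -0.42 without it, adjusted p = 0.0278). Both genes had the 3 libraries below, and postSTC7 above, every preSTC library. Pdia4, a disulfide isomerase, reached -0.55 without postSTC7 (adjusted p = 0.0266), Ssr1, of the translocon-associated complex, -0.46 (adjusted p = 0.0431), and the membrane lectin Canx -0.40 (adjusted p = 0.0492). Sec24d, a cargo adaptor of COPII, reached -0.54 (adjusted p = 0.012) and the sensor Eif2ak3 -0.47 (adjusted p = 0.0444). With the replicate number as a block in these 11 libraries Sec24d was called (adjusted p = 0.0415), whereas the adjusted p was 0.0970 for Sec61b, 0.147 for Rpn1, 0.121 for Pdia4, 0.259 for Ssr1, 0.228 for Canx and 0.113 for Eif2ak3. The marker values that come next are with all postSTC libraries. Markers of plasma cells, a cell type rich in ER, summed to 563 to 757 CPM in preSTC and 238 to 472 CPM in postSTC, with 0 of 7 called. Paneth markers summed to 9463 to 14848 and 2068 to 8856 CPM, with 1 of 8 higher and 3 lower. Of 10 goblet cell markers 1 was higher and 2 lower, and 8 were below 0 with a median of -0.53. Their summed level was 12854 to 17961 CPM in preSTC and 8944 to 14865 CPM in postSTC. Without postSTC7 the plasma cell list had 0 called and a median of -0.65. The Paneth list then had 1 higher and 4 lower (median -1.84), and the goblet list 1 higher and 1 lower (median -0.44). The part of these 3 lists in the members' values was not tested.

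**Figure D3:**
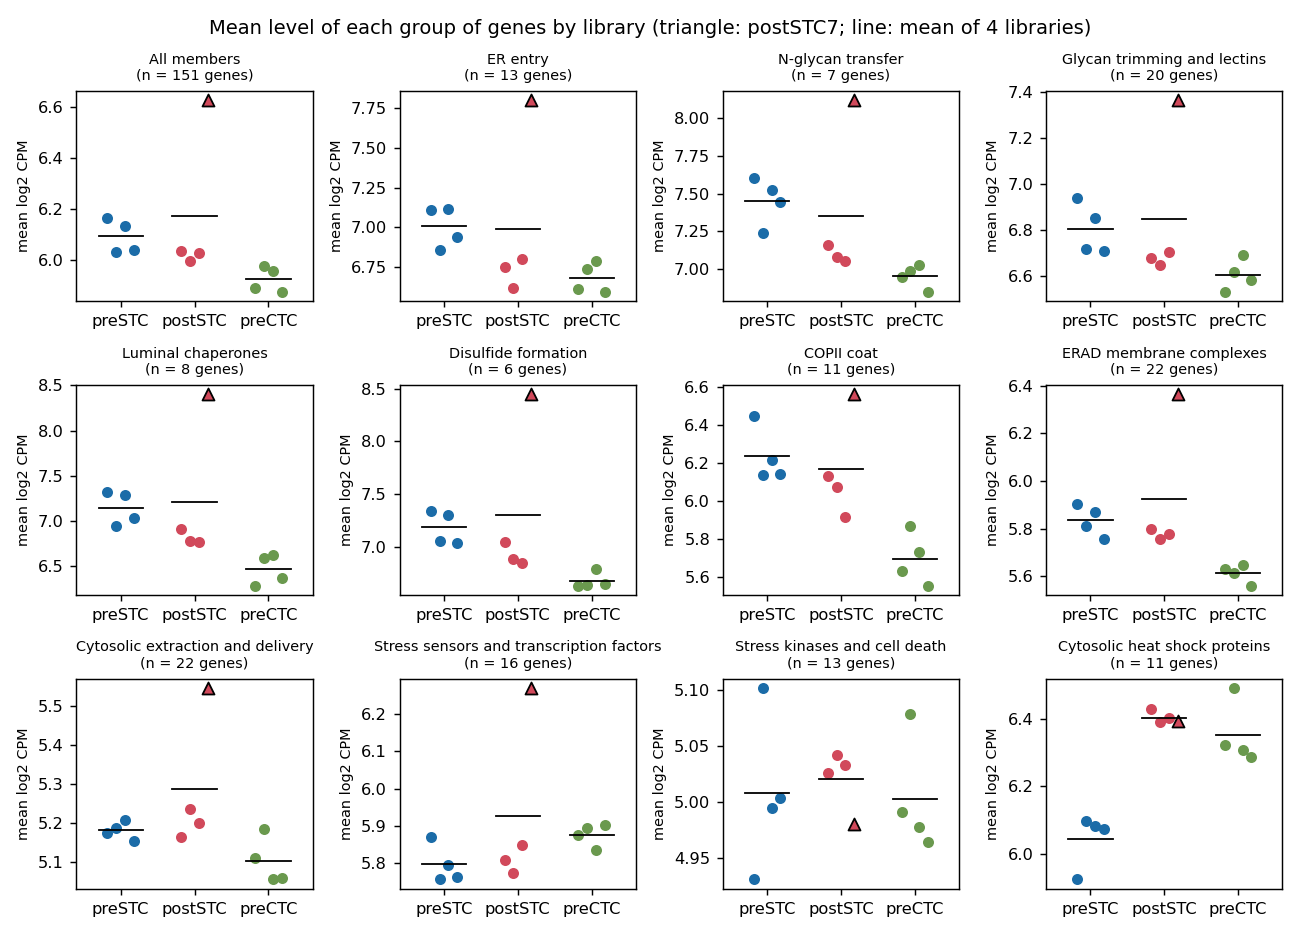
Mean log2 CPM of the members of each role (y axis, own scale per panel) in each library by group (x axis), with postSTC7 as a triangle and a line at the mean of 4 libraries. postSTC7 is the highest of 12 libraries in 10 of the panels but not among cytosolic heat shock proteins or stress kinases, and all 4 postSTC libraries lie above preSTC for the cytosolic heat shock proteins.

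In postSTC7 itself the members stood high, most of all those of the ER lumen. The library held the highest CPM of 12 for 86 of 151 members (57.0%), against 20.0% of all genes, and the median ratio of postSTC7 to the mean of the other 3 postSTC libraries was 1.42 for members and 0.95 for all genes. All 8 luminal chaperones were highest there, with a median ratio of 2.77, as were 6 of 7 N-glycan transfer genes (2.16), 11 of 13 ER entry genes (2.07) and 16 of 20 glycan trimming and lectin genes (1.67). Cytosolic heat shock proteins (3 of 11, ratio 0.97) and stress kinases (3 of 13, ratio 1.04) were not raised in the same way. These values rest on the scaling, since CPM is relative to an effective library size in which the gland genes weigh little: per total count, 24 of 151 members (15.9%, all genes 3.99%) were highest in postSTC7, among them 5 of 8 luminal chaperones. As a share of all counts the luminal chaperones took 0.312% in postSTC7 and 0.175 to 0.194% in the other 3, but all members together took 1.95% and 2.05 to 2.22%.

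The highest ratios belonged to Ero1b, an oxidase that feeds disulfide formation and is known from the pancreas, at 20.1, and to Derl3, a derlin of ERAD, at 14.3. Derl3 had 5.17, 5.15 and 8.3 CPM in postSTC1, 2 and 5 and 88.5 CPM in postSTC7. Dnajc10, a luminal disulfide reductase that was, like Ero1b, named after its values were seen, followed at 8.16, Hyou1 at 4.96, the ERAD ligase Syvn1 at 4.41, Hspa5 at 3.82 and the sensor Ern1 at 3.58. The 7 tested members with an ERSE had a median ratio of 2.79, from 1.51 to 20.1, and the 116 with a promoter but no ERSE one of 1.33. The part of the gland RNA in these ratios was not tested.

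**Figure D4:**
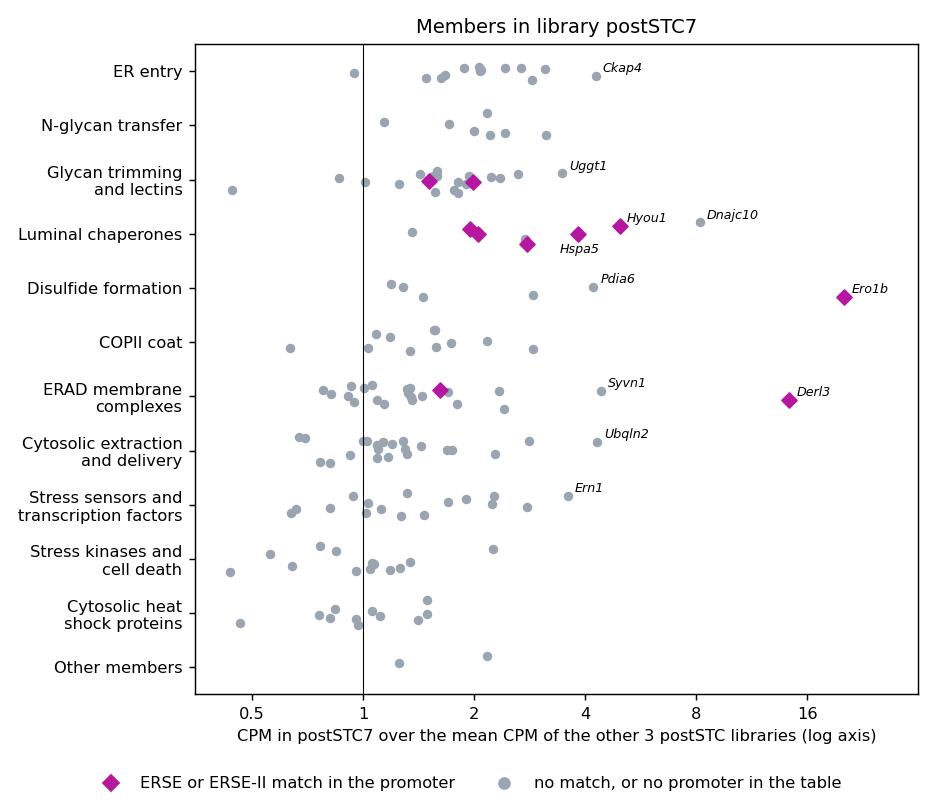
Ratio of the CPM in postSTC7 to the mean of postSTC1, 2 and 5 (x axis, log scale) for each tested member by role (rows). Diamonds mark genes with an ERSE or ERSE-II match in the promoter. All luminal chaperones and N-glycan transfer genes sit to the right of 1, the largest ratio is 20.1 for Ero1b in disulfide formation, while the cytosolic heat shock proteins centre near 1.

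The second comparison set the 2 groups sampled before any operation side by side, preSTC against preCTC. Among roles with at least 6 tested genes, the share called higher in preSTC was largest in N-glycan transfer, COPII and luminal chaperone genes, while cytosolic heat shock and stress genes were called in both directions and 95 of 151 members were not called. Of 151 members 43 were higher and 13 lower (37.1% called), where 38.7% of all genes were called (19.1% higher, 19.6% lower), and the median log2 difference was 0.22 against -0.02 for all genes. The 2 groups' CPM did not overlap for 69 members that were higher and 15 that were lower, where 45% of all genes did not overlap (22.5% in each direction). Fitted on the 8 libraries alone, 66 members were higher and 17 lower, where 48.1% of all genes were called. On deposited FPKM with limma and 1 added, 28 were higher and 11 lower, where 24.4% of all genes were called, and the members' median was 0.06 against -0.10 for all genes. These groups also differ in their marker genes: all 7 ileal genes were higher and all 10 colon genes lower in preSTC, and 5 of 8 Paneth (1 lower) and 4 of 7 plasma cell genes were higher, 9 of 10 smooth muscle and 7 of 8 fibroblast genes lower. Of 10 goblet cell genes 4 were higher and 1 lower. The 9 epithelial markers were split, 3 higher and 1 lower, and the part of these markers in the members' differences was not tested. Of the 7 tested members with an ERSE 4 were higher and 0 lower with a median of 0.80, and of the 116 with a promoter but no ERSE 32 were higher and 12 lower with a median of 0.22.

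**Figure D5:**
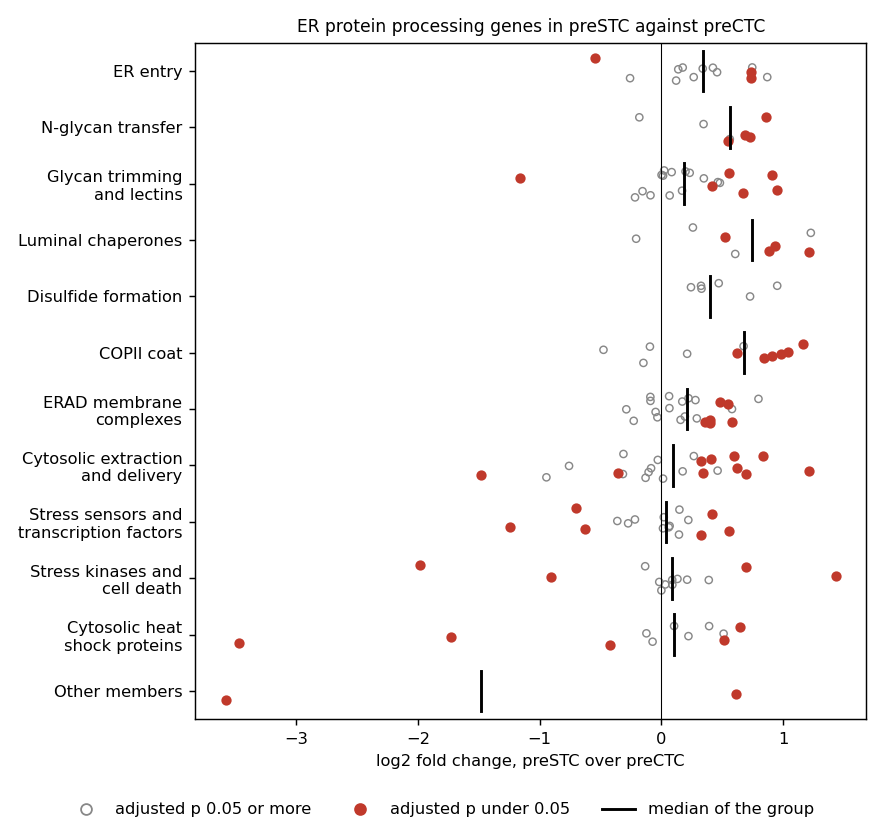
Log2 difference of each tested member, preSTC against preCTC (x axis), by role (rows), filled where edgeR's adjusted p is under 0.05. COPII, N-glycan transfer, luminal chaperone and ERAD rows hold called genes only to the right of 0, while Hspa4l at -3.47 and Tram1l1 at -3.58 lie farthest to the left.

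For vesicle export, 6 of 11 COPII genes were higher in preSTC and 0 lower. Sec13 had 137, 119, 131 and 124 CPM in preSTC and 51.5, 70.1, 58.9 and 47.4 CPM in preCTC1, 5, 7 and 9, a 2.25-fold difference with no overlap (log2 1.17 ± 0.128, adjusted p = 4.05e-05). Sar1b, the GTPase that starts COPII assembly and is needed for chylomicron export, had 152, 149, 147 and 134 CPM in preSTC and 73.1, 71.3, 66.1 and 71.9 CPM in preCTC (log2 1.04 ± 0.112, adjusted p = 3.65e-05). Its relative Sar1a was at -0.15 ± 0.171 and did not pass, a gene named after its values were seen. The coat subunits Sec23a (0.84, adjusted p = 0.00239) and Sec24d (0.91, adjusted p = 0.0103) were higher as well.

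Of 8 luminal chaperones 4 were higher and 0 lower. Hspa5 had 988, 647, 903 and 649 CPM in preSTC and 306, 390.5, 377 and 301 CPM in preCTC, 2.32-fold apart without overlap (log2 1.21 ± 0.413, adjusted p = 0.0356). That call was lost in 6 of 8 fits that left out 1 library, all but those without preSTC5 or preSTC9 (adjusted p of at most 0.0854). Hsp90b1 had 998, 692, 925 and 726 CPM and 379, 456, 530.3 and 444 CPM (log2 0.88 ± 0.239, adjusted p = 0.0123). Dnajb11 was higher by 0.93 ± 0.232 (adjusted p = 0.00786), and Sil1, an exchange factor for Hspa5 named after its values were seen, by 0.53 ± 0.151 (adjusted p = 0.0166, 0.0534 without preSTC1). Hyou1 at 1.23 ± 0.486 had a difference of like size but a wider error (adjusted p = 0.0645). Of 6 disulfide enzymes 0 passed by edgeR or limma voom, 3 at an unadjusted p under 0.05 and 2 by DESeq2 (P4hb and Pdia6), and 4 did not overlap between the groups. Pdia4 stood at 0.73 ± 0.322 (adjusted p = 0.0925) and P4hb at 0.47 ± 0.193 (adjusted p = 0.0727).

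In the glycan branch, 4 of 7 N-glycan transfer genes were higher and 0 lower: Rpn2, with 469, 335, 428 and 374 CPM in preSTC and 196, 235, 260.1 and 194 CPM in preCTC (log2 0.86 ± 0.236, adjusted p = 0.0133), Dad1 (0.73, adjusted p = 0.031), and the catalytic subunits Stt3a (0.69) and Stt3b (0.55). Leaving out 1 library ended the call of Stt3a in 7 of 8 fits, all but that without preSTC5 (adjusted p of at most 0.103), and of Dad1 in 5 of 8, those without preCTC1, preCTC7, preCTC9, preSTC1 or preSTC7 (at most 0.0796). Of 20 glycan trimming and lectin genes 5 were higher and 1 lower, a share of 30% called. Calr had 1684, 1184, 1469.7 and 1240.2 CPM in preSTC and 578, 747, 880.0 and 676 CPM in preCTC (log2 0.95 ± 0.255, adjusted p = 0.0118), and Canx differed by 0.67 ± 0.162 (adjusted p = 0.00693). The lower gene was Uggt2, with 1.75, 2.1, 2.43 and 1.91 CPM in preSTC and 4.11, 3.45, 5.09 and 5.69 CPM in preCTC (log2 -1.16 ± 0.317, adjusted p = 0.013). Its relative Uggt1, the glucosyltransferase that returns misfolded glycoproteins to the lectins, did not pass at 0.35 (adjusted p = 0.482). At ER entry, Ssr1 (0.74 ± 0.163, adjusted p = 0.00396) and the ribosome-binding Rrbp1 (0.74 ± 0.203, adjusted p = 0.0135) were higher, and Sec62, named after its values were seen, was lower (-0.55 ± 0.189, adjusted p = 0.0373), of 13 genes. Leaving out any 1 of the 8 libraries ended the Sec62 call (adjusted p from 0.0584 to 0.0849).

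Degradation genes were higher or did not pass at the membrane and mixed in the cytosol. Of 22 ERAD membrane genes 6 were higher and 0 lower. That is 27.3% called, below the 38.7% of all genes called (19.1% higher, 19.6% lower). Sel1l, the adaptor of the Hrd1 ligase, had 187, 172, 176 and 162 CPM in preSTC and 102, 118, 133 and 114 CPM in preCTC (log2 0.58 ± 0.127, adjusted p = 0.00388), and the ubiquitin-conjugating enzyme Ube2d3 differed by 0.55 ± 0.107 (adjusted p = 0.00202). The ligase Syvn1 (Hrd1) itself did not pass at 0.58 ± 0.432, and neither did Herpud1 at 0.22 ± 0.193 or Derl3 at 0.80 ± 0.819. Of 22 cytosolic extraction genes 8 were higher and 2 lower, a share of 45.5% called. Yod1, a deubiquitinase that works with the VCP segregase, had 8.03, 8.6, 5.78 and 7.98 CPM in preSTC and 3.58, 3.19, 2.37 and 3.95 CPM in preCTC (log2 1.21 ± 0.258, adjusted p = 0.00321), and Bag2 was lower, at 8.3, 9.09, 12.3 and 10.3 CPM against 26.4, 44.3, 19.8 and 21 CPM (log2 -1.48 ± 0.328, adjusted p = 0.00407).

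The stress genes did not share 1 direction. Of 16 sensors and factors 3 were higher and 3 lower. Eif2ak4 (GCN2, the kinase that senses uncharged tRNA) had 24.7, 28.6, 26.3 and 28.7 CPM in preSTC and 69.1, 62.4, 59.4 and 66 CPM in preCTC, a 2.37-fold lower level with no overlap between groups (log2 -1.25 ± 0.0892, adjusted p = 1.93e-06). Ppp1r15a (GADD34, which reverses eIF2α phosphorylation) was lower, with -0.70 ± 0.259 at an adjusted p of 0.0496, a call lost in 16 of 20 alternative settings and in 6 of 8 fits that left out 1 library, all but those without preCTC5 or preCTC7 (adjusted p of at most 0.174). Ern1 (-0.27), Eif2ak3 (0.02), Atf6 (0.15), Atf4 (0.07) and Ddit3 (-0.22) did not pass. Ern2, the epithelial form of IRE1, is not annotated to the pathway and was lower in preSTC (-1.10 ± 0.173, adjusted p = 0.000473).

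Among 13 stress kinase and cell death genes 2 were higher and 2 lower. Map3k5 had 20.9, 23.4, 22.1 and 21.9 CPM in preSTC and 86.4, 106, 88 and 68.4 CPM in preCTC (3.95-fold lower, log2 -1.98 ± 0.162, adjusted p = 5.16e-06), and Bak1 was the reverse with 262, 244, 271 and 244 CPM and 97.7, 103, 102 and 74.5 CPM (log2 1.44 ± 0.192, adjusted p = 0.000165). Of 11 cytosolic heat shock genes 2 were higher and 3 lower. Hspa4l had 0.757, 1.92, 1.7 and 2.61 CPM in preSTC and 18.9, 18.1, 20.0 and 20.4 CPM in preCTC, 11.1-fold lower (adjusted p = 4.59e-05), and Cryab had 10.9, 10.2, 12.7 and 13.7 CPM and 41.9, 58.3, 25.4 and 31.6 CPM (3.31-fold lower, adjusted p = 0.000205). Hsp90aa1, the inducible HSP90, was higher by 0.51 ± 0.116 (adjusted p = 0.00458). Tram1l1, a relative of a translocon-associated protein, was low everywhere, with 0.553, 0.129, 0.27 and 0.532 CPM in preSTC and 3.77, 2.79, 5.79 and 5.49 CPM in preCTC (log2 -3.58 ± 0.644, adjusted p = 0.00113).

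The third comparison, postSTC against preCTC, shares its libraries with the other two, so its values are set beside them without a count of agreement. Of 151 members 28 were higher in postSTC and 5 lower, where 16.6% of all genes were called (9.27% higher, 7.37% lower), with a median of 0.33 against 0.04 for all genes. The groups did not overlap for 43 members that were higher and 6 that were lower, where 18.1% of all genes did not overlap (9.54% higher, 8.6% lower). Without postSTC7 46 were higher and 13 lower without overlap (all genes 13.8% and 13.4%). The fit without postSTC7 called 28 higher and 7 lower, where 19.6% of all genes were called (10.8% higher, 8.84% lower), and the median was 0.11. By role 5 of 11 COPII and 4 of 8 luminal chaperone genes were higher, and 4 and 3 without postSTC7. The higher calls numbered 6 in the 8 libraries alone (9.44% of all genes called), 9 with the replicate number as a block in 12 libraries (8.91%), 3 or 2, with 7 lower, on FPKM with 1 or 0.1 added (10.6% or 9.99%) and 44 with DESeq2 (22.8%). Leaving out preCTC1 gave 14 higher (11.2% of all genes called), and leaving out preCTC7 or preCTC9 17 (12% and 12.7%). The marker lists differed as well: 7 of 7 ileal genes were higher with a median log2 difference of 8.83, and 5 of 8 Paneth genes were higher, while 4 of 10 colon-enriched, 4 of 10 smooth muscle and 3 of 8 fibroblast genes were lower and 1 fibroblast gene was higher. Of 7 plasma cell genes 1 was higher and 0 lower, of 10 goblet cell genes 0 and 1, and of 9 epithelial genes 1 and 1. The part of these lists in the members' differences was not tested.

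Single genes placed postSTC between the other groups or beyond them. Hspa4l, at 1.75 ± 0.763 CPM in preSTC, 7.36 ± 3.4 CPM in postSTC and 19.4 ± 1.05 CPM in preCTC, was lower in postSTC than in preCTC with a log2 difference of -1.39 ± 0.353 (adjusted p = 0.0195, -1.19 at 0.0239 without postSTC7 and not called without postSTC2, adjusted p = 0.0539). Map3k5 likewise stood in between, with 39.8 ± 8.04 CPM in postSTC and a log2 difference from preCTC of -1.13 ± 0.158 (adjusted p = 0.00063, -1.20 at 0.000608 without postSTC7), as did Sec13 at 83.4 ± 9.62 CPM (0.55 ± 0.127, adjusted p = 0.0121, 0.48 at 0.0247 without postSTC7). Eif2ak4 lay below every preCTC library, with 28.7, 32.2, 32.6 and 32.2 CPM in postSTC (-1.03 ± 0.0888, adjusted p = 1.65e-05, -1.05 at 2.31e-05 without postSTC7). Ddit3 was higher in postSTC than in preCTC as it was against preSTC (0.61 ± 0.167, adjusted p = 0.027, 0.74 at 0.00221 without postSTC7). That call was lost in 10 of 20 alternative settings, among them the fits without postSTC1, postSTC2, postSTC5, preCTC1 or preCTC7 (adjusted p of at most 0.0780). Hspa5 exceeded preCTC by 1.47 ± 0.415 (adjusted p = 0.0317) and by 0.69 ± 0.176 (adjusted p = 0.0174) without postSTC7, and Hyou1 by 1.60 ± 0.491 (adjusted p = 0.0441) and 0.61 ± 0.187 (adjusted p = 0.0416). These calls were lost in 8 of 20 settings for Hspa5 and in 11 of 20 for Hyou1, in both when any 1 preCTC library was left out (adjusted p of at most 0.0840 and 0.115).

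Xbp1, the factor spliced by IRE1, and 22 further tested genes of the unfolded protein response lie outside the membership rule. Xbp1 had 228 ± 24.8 CPM in preSTC, 281 ± 119 CPM in postSTC and 193 ± 33.7 CPM in preCTC and was not called in any comparison, nor without postSTC7, and its spliced form is not seen in counts per gene. Its promoter holds an exact ERSE (chr14:84604546-84604588, plus strand, motif from -65 to -47: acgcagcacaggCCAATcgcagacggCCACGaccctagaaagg). Of these 23 genes 0 were higher and 1 lower in postSTC against preSTC by edgeR, the lower one being Agr2, a disulfide isomerase of goblet cells (-0.89 ± 0.202, adjusted p = 0.0126). Without postSTC7 0 were higher and 5 lower, with Agr2 at -0.81 ± 0.204 (adjusted p = 0.0193). In preSTC against preCTC 6 were higher and 0 lower, and in postSTC against preCTC 6 were higher and 1 lower (7 and 1 without postSTC7). The pseudokinase gene Trib3, a target of Ddit3 named after its values were seen, had 12.9, 7.43, 9.64 and 7.62 CPM in preSTC and 0.628, 0.862, 1.29 and 0.506 CPM in preCTC (log2 3.51 ± 0.355, adjusted p = 2.44e-05).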

How the data were processed

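The authors deposited whole read counts per gene, and FPKM values that, per the file headers, cover the same genes and libraries. Per the submitters' processing notes, fastp, HISAT2, HTSeq and the assembly mRatBN7.2 were used. What each did and with which settings is not given in the sources used here, so near-identical paralogs and antisense overlaps are uncertain. The series' design text describes another species and was not used. FPKM was proportional to count over column total within each gene and entered alternatives only, as log2 after adding 1 or 0.1. In postSTC7 that total includes the gland genes, so its FPKM of other genes are low relative to its CPM.

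Counts were fitted in R 4.3.3 with edgeR 4.0.16 (filterByExpr, 15704 genes kept, TMM scaling, quasi-likelihood F-test, two-sided, group as the only term, 12 libraries). Calls are at a Benjamini-Hochberg adjusted p under 0.05 over all genes tested. CPM are TMM-scaled, and the SE is the absolute log2 fold change over the root of F. Alternatives used limma 3.58.1, DESeq2 1.42.0, other filters, scalings and sets of libraries. The common biological coefficient of variation was 0.322. The pipeline was tested on simulated data. Labels put every library in batch 1, so no batch split was possible.

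Named genes were, per role and for each of the first 2 comparisons, the 2 called members with the largest absolute log2 fold change and a mean CPM of at least 1, beside a fixed set of pathway genes. The members, lists and motifs were chosen with earlier results of these data known. Between postSTC and preSTC, deviations of same-numbered libraries from their group means correlated across genes at 0.236, 0.158 and 0.168. Those of unlike-numbered libraries reached 0.130 at most. The numbers were taken to pair the libraries, as a hint from the data that the labels do not state. Promoters came from RefSeq (GRCr8, not the assembly of the counts), and 155 members matched by gene identifier.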

Additional observations from a re-analysis of the deposited data

Results flagged for a closer look

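Each of the 45 named genes and the members' mean log2 CPM was checked in every group of 4 for a library set far from the rest by Dixon's ratio. Of 138 checks 21 were past the 95% limit, where chance gives about 1 in 20. In 18 of them postSTC7 was the highest postSTC library. Among luminal chaperones these were Hspa5 at 2129.8 CPM, Hyou1 at 645, Dnajb11 at 181 and Dnajc3 at 253 CPM. Along the rest of the ER they were Sec61b at 169.9, Rpn1 at 641, Dad1 at 202, Pdia4 at 498, Edem1 at 240.2, Sec24d at 264, Syvn1 at 263 and Derl3 at 88.5 CPM. Of the stress genes and co-chaperones they were Atf4 at 603, Atf6 at 254, Ern1 at 161, Ppp1r15a at 44.1 and Bag2 at 38.1 CPM. The mean log2 CPM over members was 6.63 in postSTC7 and 6.00 to 6.04 in the other postSTC libraries.

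In the remaining 3 checks a library stood low: Eif2ak4 in postSTC1 at 28.7 CPM, Ern1 in preSTC5 at 37.5 CPM and Erp29 in preSTC9 at 95.1 CPM.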

How the results depend on the processing

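At 30095656 counts or more a library, 4 members were too low to test. In postSTC against preSTC (6 members higher, 3 lower, median 0.06), leaving out 1 library at a time gave 5 to 14 higher and 1 to 22 lower. The highest counts came without postSTC1 (14 higher, where 23.2% of all genes were called) and without postSTC7 (22 lower, 18.3%). Without preSTC1 or without preSTC7 1 lower was left (10.1% and 10.6% of all genes called). limma on log2(FPKM + 1) gave 0 higher and 1 lower (3.32%). On log2(FPKM + 0.1) it gave 1 and 1 (4.16%) with a median of -0.13. With postSTC7 and preSTC7 both left out, an alternative chosen after seeing the data, 5 were lower (12.9%).

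With the replicate number as a block, that comparison gave 1 lower in 12 libraries (11.1% of all genes called). It gave 0 higher and 0 lower in the 8 libraries compared (0.432%), a fit with few degrees of freedom. In the 11 libraries without postSTC7, a fit chosen after seeing the data, it gave 3 higher, 1 lower (7.25%) and a median of -0.13. For preSTC against preCTC and postSTC against preCTC the numbers were not taken to pair the libraries, as 1 and 2 pairs were at or below a correlation of 0.1. The other same-numbered pairs were at 0.222, 0.171 and 0.145 in the former and 0.220 in the latter, so a pairing there is unsettled. The block gave 66 higher in the 8 libraries of the former, where 45.9% of all genes were called. In the latter it gave 9 higher and 2 lower in 12 libraries (8.91% of all genes called). In 8 libraries it gave 0 and 0 (0.98% of all genes, with 29 members at an unadjusted p under 0.05). In 11 libraries it gave 11 and 2 (8.51%), with a median of 0.090.

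In preSTC against preCTC (43 higher, 13 lower), the 8 libraries alone gave 66 higher (48.1% of all genes called). Both FPKM fits gave 28 higher (24.4% and 23.9%). In postSTC against preCTC (28 higher, 5 lower, median 0.33), DESeq2 gave 44 higher (22.8%) and the 8 libraries alone 6 (9.44%). FPKM with 1 and with 0.1 added gave 3 and 2 (10.6% and 9.99%), with medians of 0.0016 and 0.00070. There, leaving out 1 library gave 14 to 40 higher, 3 to 7 lower and medians of 0.11 to 0.41. The 40 came without postSTC5 (15.9% of all genes called) and the 14 without preCTC1 (11.2%), and 17 were left without preCTC7 or preCTC9 (12% and 12.7%). postSTC7 and preSTC7 both left out gave a median of 0.11. FPKM moved the median of all genes by over 0.1 in each comparison with an added 0.1, to -0.088 after against before the operation, -0.163 between the 2 groups sampled before, and -0.242 in postSTC against preCTC (-0.171 with 1 added).

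Of the single members followed, 5 turned direction in postSTC against preSTC, none of them called in the main fit. Without postSTC7 edgeR called Dnajc3, Hyou1, Pdia4 and Sec61b lower (adjusted p = 0.0322, 0.0408, 0.0266 and 0.0135). Hspa5 was not called there (adjusted p = 0.0635). With limma voom the log2 fold change was -0.043 for Dnajc3, -0.12 for Pdia4 and -0.16 for Sec61b. In the 8 libraries alone the log2 fold change was -0.0050 for Sec61b. With the replicate block in 12 libraries the log2 fold change was -0.0028 for Pdia4. With the block in 8 libraries the log2 fold change was -0.081 for Pdia4 and -0.038 for Sec61b. Without the seminal vesicle and prostate genes the log2 fold change was -0.017 for Pdia4 and -0.022 for Sec61b. On FPKM with 1 added the log2 fold change was -0.16 for Dnajc3, -0.13 for Hspa5, -0.13 for Hyou1, -0.26 for Pdia4 and -0.26 for Sec61b. With 0.1 added the log2 fold change was -0.16 for Dnajc3, -0.13 for Hspa5, -0.14 for Hyou1, -0.26 for Pdia4 and -0.26 for Sec61b. Without postSTC7 and preSTC7 the log2 fold change was -0.37 for Dnajc3, -0.46 for Hspa5, -0.53 for Hyou1, -0.46 for Pdia4 and -0.44 for Sec61b. With the block in 11 libraries the log2 fold change was -0.35 for Dnajc3, -0.53 for Hspa5, -0.58 for Hyou1, -0.44 for Pdia4 and -0.44 for Sec61b. Leaving out 1 library at a time gave -0.43 to 0.26 for Dnajc3, -0.53 to 0.46 for Hspa5, -0.63 to 0.61 for Hyou1, -0.55 to 0.18 for Pdia4 and -0.51 to 0.17 for Sec61b. The cause of these shifts was not tested.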
